A study of Mus musculus with 4 samples.

Results

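Igsf5, Pcp4, Foxq1 and Cdk5rap1 are 4 of the 52636 genes in a single-cell RNA-sequencing table of mouse mammary luminal epithelium, of which 32271 had at least 1 unique molecular identifier (UMI, a counted transcript molecule). They were selected on measured values: an earlier analysis of the same libraries had placed them higher in mutant than in WT cells in every class of luminal cell. Their genotype differences are therefore a description and carry no test.

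The study addressed what impaired activator function of the receptor ERBB3 does to luminal cells. The genotypes were ErbB3+/+;MMTV-Cre (WT) and ErbB3V943R/V943R;MMTV-Cre (mutant), both of C57BL/6N mice aged 6 weeks and both carrying MMTV-Cre, a transgene that expresses Cre recombinase in mammary epithelium. In the mutant allele a floxed WT cassette precedes the V943R exon, so a cell in which Cre has not acted keeps the WT protein. Thoracic and abdominal glands of 3 mice per genotype were pooled, enriched for epithelium, sorted by FACS for luminal cells and run as 2 droplet libraries per genotype, called A and B here in the order of their library names. Each genotype is thus 1 pool of mice, the 2 libraries show technical spread only, and all intervals given here are 95% intervals that cover counting error alone.

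The table assigned cells to luminal progenitor (LP), luminal intermediate (LI) and mature luminal (ML) classes through clusters 1 to 11, with rare other cells in clusters 12 and 13. LP cells form the clusters 1 and 2, LI cells the cluster 3, and ML cells the clusters 4 to 11. The libraries held 6849 to 9627 cells with medians of 3154 to 4027 UMIs per cell, and library pairs shared 71 to 111 cell barcodes, at most 1.28% of a library. Erbb3, the targeted gene, was at 60.9 and 63.4 UMIs per 1000000 UMIs (CPM) in the luminal cells of WT libraries A and B and at 29.9 and 30.9 CPM in mutant libraries A and B. The mutant level was 0.489 times the WT level (0.463 to 0.516), and the libraries of a genotype stood together. Counts of 3′ ends do not read the mutated codon itself, so they show the genotypes apart without showing the change. Per the paper's methods the floxed cassette carries the 3′UTR of human growth hormone. Transcripts of an allele that Cre has not cut may therefore be missed as Erbb3, and their part in this ratio was not tested. The paper reports a smaller decrease of Erbb3 mRNA in the mutant sample. Its measure and set of cells may differ from the summed UMIs of luminal clusters used here. Marker genes went with the class labels: 6 luminal progenitor genes summed to 7375 to 8112 CPM in LP and 101 to 114 CPM in ML cells, and 7 mature luminal genes to 981 to 1072 and 8471 to 9144 CPM. By the rule for raised and lowered genes given with the background shares, no marker of these 2 lists was called between genotypes in any class. Among the other lists, Mki67 and Birc5 (proliferating), Acta2 (basal) and the stress gene Hspa1b were raised in LI, Hspa1b and the adipocyte marker Fabp4 in LP and the immune marker Cd74 in ML cells. The immune marker Lyz2 was raised over all luminal cells, and the fibroblast marker Dcn was lowered there and in ML cells, from 14.3 and 12.9 CPM in WT to 4.33 and 3.58 CPM in mutant ML cells. The 9 dissociation stress genes summed to 19255 and 20020 CPM in WT and 15681 and 16381 CPM in mutant luminal cells, and the part of this difference in the results was not tested.

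The members belong to unrelated families. Igsf5, also called JAM4, is an immunoglobulin-superfamily adhesion molecule that sits at tight junctions of epithelial cells and binds the scaffold MAGI1. Pcp4, also called PEP-19, is a small protein with an IQ motif that binds calmodulin and alters how calmodulin exchanges calcium. Foxq1 is a forkhead transcription factor best known from hair follicles, from gastric mucous cells and from epithelial plasticity in carcinoma. Cdk5rap1 is an enzyme that adds a methylthio group to certain mitochondrial transfer RNAs, and was first found as a partner of the CDK5 activator. None of them is a standard marker of a mammary luminal class.

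In GENCODE M21, on the build GRCm38, Igsf5 (ENSMUSG00000000159) lies on chromosome 16 from 96361668 to 96422121 on the plus strand, and Pcp4 (ENSMUSG00000090223) follows on the same strand from 96467606 to 96525793. The gap between them is 45484 bases and holds no other gene with at least 50 UMIs in a genotype. A second gene model named Igsf5 (ENSMUSG00000117081) runs from 96361794 to 96525580, with 788 exonic bases in common with Igsf5 and 243 in common with Pcp4. That model is not a row of the table, so reads of a transcript across both genes cannot be told apart from reads of either. Foxq1 (ENSMUSG00000038415) is a gene of 1 exon on chromosome 13 from 31556134 to 31560976 on the plus strand. The minus-strand gene A530084C06Rik lies wholly within it, with 3200 shared exonic bases, and was at 0.578 CPM in WT and 0.853 CPM in mutant luminal cells. Cdk5rap1 (ENSMUSG00000027487) lies on chromosome 2 from 154335380 to 154373010 on the minus strand.

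Of the 4 members, Pcp4 and Cdk5rap1 were matched in the RefSeq promoter table (GRCm38.p6), while Igsf5 and Foxq1 are named only. The 250 bases before the RefSeq start of Pcp4 are shown because Pcp4 stands, with its neighbour Igsf5, for a level that differs strongly between clusters. They lie at chr16:96467356-96467605 on the plus strand, directly before the GENCODE start as well, and are in lower case throughout since no motif searched was found in them.
Pcp4: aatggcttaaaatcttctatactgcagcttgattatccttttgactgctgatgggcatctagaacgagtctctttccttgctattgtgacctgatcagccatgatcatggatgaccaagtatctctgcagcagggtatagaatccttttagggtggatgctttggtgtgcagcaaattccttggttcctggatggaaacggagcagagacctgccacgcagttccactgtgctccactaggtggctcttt
For Cdk5rap1 the RefSeq start (154372719) is that of 1 of its 7 GENCODE transcripts and lies 291 bases inside the GENCODE gene. Its window, chr2:154372720-154372969 on the minus strand, is therefore wholly within the longest gene model, with 143 of its 250 bases in exons, and its letters are not shown.

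The motifs were searched on both strands in these letters: the forkhead core TGTTTA, the TATA box TATAAA, the GC box GGGCGG and the CCAAT box CCAAT. Neither window held the forkhead core, which 12% of the 32851 promoters held, nor the TATA box (12.4% of all) or the CCAAT box (33.8% of all). Cdk5rap1 held 1 GC box, a motif of 32.7% of all promoters. GC content was 46.8% in the Pcp4 window and 54.0% in the Cdk5rap1 window, against a median of 52.4% over all promoters.

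Igsf5 was the adhesion gene of the set and close to double in mutant luminal cells. Over all luminal cells Igsf5 was at 546 CPM in WT A, 483 CPM in WT B, 1002 CPM in mutant A and 1004 CPM in mutant B, so both mutant libraries lay above both WT libraries. The members were chosen as raised, and the share of all genes set apart in this way was not counted. Nothing is therefore read from such separation, for Igsf5 or for the other members. The fold of Igsf5 was 1.95 (1.93 to 1.98), and it was 1.67 (1.51 to 1.86) in LP, 2.24 (2.14 to 2.34) in LI and 2.01 (1.98 to 2.04) in ML cells. LP cells held little Igsf5, at 69.4 and 60.4 CPM in WT and 106 and 110.0 CPM in mutant libraries, and on cells thinned to 1000 UMIs their fold was below 1.5 (log2 ratio 0.50). In LI cells the WT libraries were at 363 and 342 CPM and the mutant libraries, which differed most from each other here, at 894 and 679 CPM. ML cells were highest, with 643 and 564 CPM in WT and 1182 and 1233 CPM in mutant libraries.

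Pcp4, the calmodulin regulator next to Igsf5, moved in parallel. Its level in all luminal cells was 674 and 600.0 CPM in WT A and B and 1217 and 1251 CPM in mutant A and B, a fold of 1.94 (1.92 to 1.96). By class the fold was 1.78 (1.62 to 1.95) in LP, 2.22 (2.13 to 2.31) in LI and 2.0 (1.97 to 2.02) in ML cells. LP cells had 94.6 and 74.7 CPM in WT and 145 and 153 CPM in mutant libraries. ML cells had 790.5 and 702 CPM in WT and 1434 and 1535 CPM in mutant libraries. The libraries of the genotypes did not overlap in any class, from which, as for Igsf5, nothing is read.

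Foxq1, the forkhead factor, also roughly doubled in mutant cells, from fewer UMIs. It was at 13.4 and 14.6 CPM in WT A and B and at 26.5 and 28.5 CPM in mutant A and B, a fold of 1.96 (1.81 to 2.12). The fold was 1.71 in LP (log2 ratio 0.77, 0.32 to 1.23), 2.45 (1.89 to 3.19) in LI and 1.97 (1.81 to 2.15) in ML cells. In LP cells the libraries nearly met, at 5.2 and 9.81 CPM in WT and 10.9 and 14.8 CPM in mutant. These LP values rest on 21 to 70 UMIs per library, and the fold fell below 1.5 without WT A (log2 ratio 0.41) or without mutant B (log2 ratio 0.51). ML cells gave the steadiest values, 15.1 and 15.6 CPM in WT and 29.8 and 30.8 CPM in mutant libraries.

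Cdk5rap1, the transfer RNA enzyme, had the largest fold of the 4 over all luminal cells. Its level was 6.81 and 6.86 CPM in WT A and B and 20.2 and 19.4 CPM in mutant A and B, a fold of 2.89 (2.60 to 3.21). The libraries of a genotype differed from each other by at most 0.06 on the log2 scale over all luminal cells, against a log2 ratio of 1.53 between genotypes. By class the fold was 2.94 (2.24 to 3.92) in LP, 2.37 (1.72 to 3.31) in LI and 2.94 (2.60 to 3.33) in ML cells. LP cells had 6.19 and 10.0 CPM in WT and 25.6 and 23.0 CPM in mutant libraries.

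**Figure D1:**
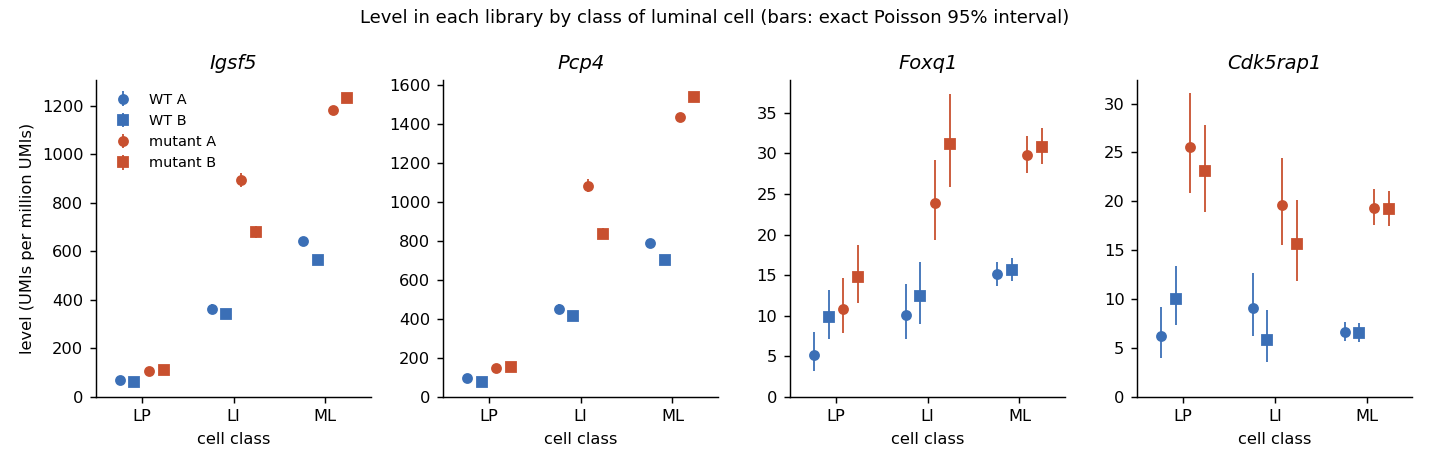
Level of each member (CPM, linear axes that start at 0 and differ between panels) in LP, LI and ML cells of the 4 libraries, with bars for the exact Poisson 95% interval. Both mutant libraries (red) lie above both WT libraries (blue) in every class, closest for Foxq1 in LP cells (9.81 CPM in WT B and 10.9 CPM in mutant A). The members were chosen as raised, so nothing is read from this separation.

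The rest of the genes give the background for these values. A gene was counted as raised or lowered where the genotype sums differed by 1.5-fold or more, the higher genotype had at least 50 UMIs, and the mutant libraries both lay on 1 side of the WT libraries. In LP cells 2.23% of genes were raised and 0.606% lowered. The shares were 2.83% and 1.03% in LI cells, 2.86% and 1.57% in ML cells, and 3.26% and 1.19% over all luminal cells. Of the 10052 genes with enough UMIs in all 3 classes, 20 (0.199%) were raised in all of them, and 6 were lowered in all. The 4 members are among the 20 by choice, so nothing is read from their presence. The median log2 ratio over all genes was between 0.00 and 0.02 in every class.

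Ordered by the smallest of their 3 class ratios, the 20 genes began with Cdk5rap1 (2.37-fold in LI, its lowest class), the keratin Krt6a (log2 1.08), the glutathione transferase Gsta4 (1.06) and the keratin Krt4 (0.87). The processed pseudogene Gm13437 (0.83) came next, followed by Pcp4 (0.83), Foxq1 (0.77) and Igsf5 (0.74), and the processed pseudogene Gm5575 (0.71) was lower in the order. Only 11 of the 20 were protein-coding in GENCODE M21, while 8 were processed pseudogenes, whose reads may belong to a parent gene. Krt6a went from 4.11 to 19.5 CPM in LP and from 62.8 to 133 CPM in ML cells, and Gsta4 from 72.3 to 228 CPM in LI and from 159 to 421 CPM in ML cells.

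Across the 11 luminal clusters the mutant sum was the higher in all 11 for each member. Both mutant libraries lay above both WT libraries in 11 clusters for Igsf5, Pcp4 and Cdk5rap1, and in 9 for Foxq1, which overlapped in clusters 2 and 9. The share of all genes set apart in this way was not counted by cluster, and the members were chosen as raised. Nothing is therefore read from these counts. In cluster 1 Igsf5 was at 71.0 CPM in WT A and 73.0 CPM in mutant A, and Pcp4 at 97.8 and 100.1 CPM. Igsf5 and Pcp4 folds were under 1.5 in clusters 1 (1.40 and 1.48), 5 and 6 (1.37 and 1.42). The intervals of the ratio included no change for Foxq1 in clusters 9 and 11 and for Cdk5rap1 in cluster 11. Igsf5 folds ran from 1.26 in cluster 5 to 2.53 in cluster 2 with a median of 1.64, and Pcp4 folds from 1.27 to 2.82 in the same clusters. Cdk5rap1 reached its largest fold in cluster 9 (6.81, 2.0 to 35.9), where WT B held none. In cluster 11 its log2 ratio was 0.32 (-0.39 to 0.99), against a median of 3.01-fold over clusters, with 8.29 CPM in WT and 10.4 CPM in mutant cells. Whether that cluster differs from the others in Cdk5rap1 was not tested.

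**Figure D2:**
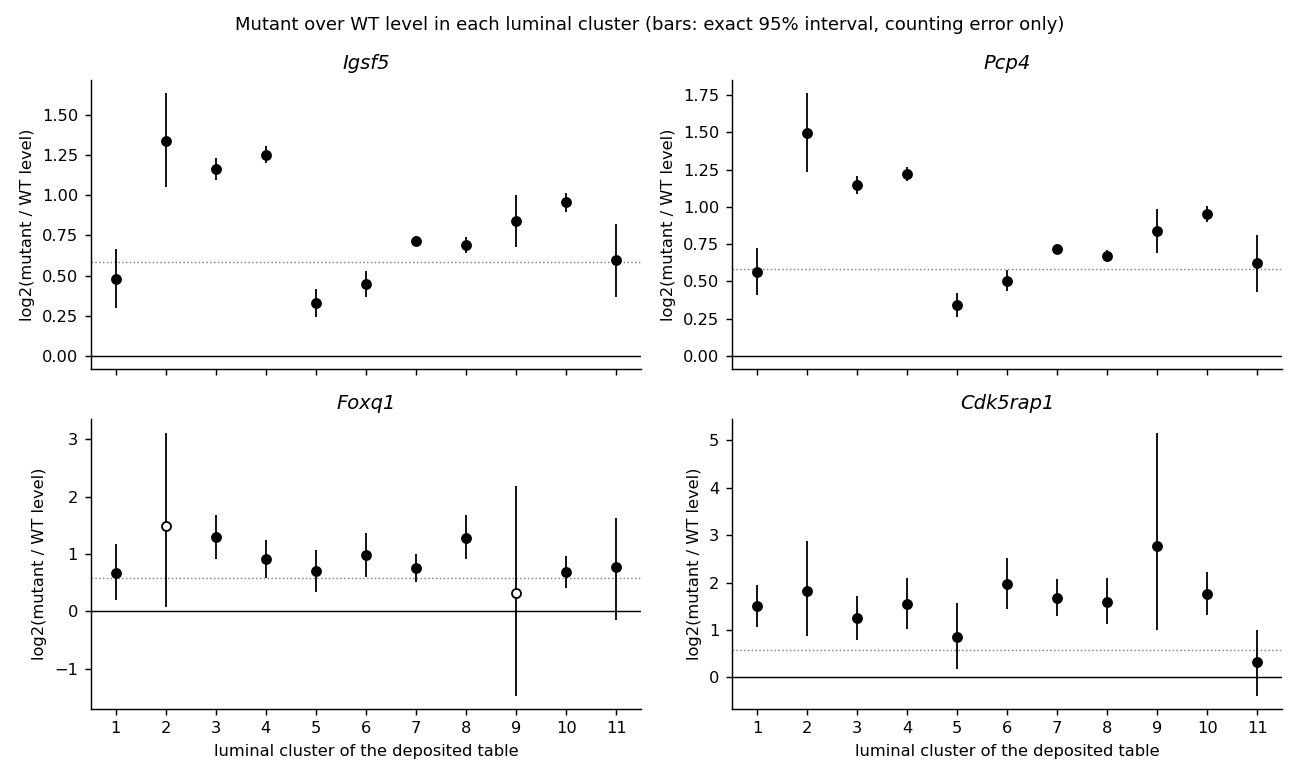
Log2 ratio of the mutant to the WT level in luminal clusters 1 to 11 for each member, with exact conditional 95% intervals; axes differ between panels. Filled points have both mutant libraries above both WT libraries, open points do not (Foxq1 in clusters 2 and 9), the solid line marks no difference and the dotted line a fold of 1.5.

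Within WT, the levels of Igsf5 and Pcp4 spanned a wide range over the clusters and those of Cdk5rap1 a narrow one. Igsf5 was highest in ML cluster 7 (1316 CPM) and next in cluster 8 (857 CPM), whose WT libraries stayed below those of cluster 7. Cluster 8 overlapped in its libraries with cluster 9 (712 CPM), and cluster 9 with cluster 4 (534 CPM), because WT A and B differed by 1.73 on the log2 scale in cluster 9. Clusters 4, 5 and 6 followed at 534, 459 and 395 CPM, where cluster 4 lay above cluster 5 and cluster 5 above cluster 6 in both libraries. Clusters 6, 10 (368 CPM) and 3 (353 CPM) overlapped as neighbours. LP clusters 2 and 1 and ML cluster 11 were lowest and overlapped, at 68.5, 63.5 and 62.9 CPM, which is 20.9-fold under cluster 7. Pcp4 followed the same order down to cluster 3, from 1611 CPM in cluster 7 to 434 CPM, with 80.1 to 86.3 CPM in clusters 11, 1 and 2. Foxq1 was highest in ML cluster 5 (24.8 CPM) and lowest in cluster 2 (3.02 CPM), and apart from cluster 5 above cluster 7 and cluster 4 above cluster 8 its neighbours in the order overlapped. Cdk5rap1 spanned 4.21 to 8.88 CPM, and every neighbouring pair in its order overlapped, while clusters farther apart could separate, such as cluster 11 (9.39 and 7.30 CPM in WT A and B) above cluster 10 (5.72 and 5.46 CPM).

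Cluster make-up differed between genotypes where it matters for the pooled values. Cluster 11, low in Igsf5 and Pcp4, made up 15.1% of cells in WT A and 15.6% in WT B, but 4.69% in mutant A and 5.02% in mutant B. Cluster 7, highest in both genes, made up 13.44% and 14.42% of cells in WT A and B. Its share was 15.96% in mutant A and 17.00% in mutant B. With the levels of single clusters weighted by the WT shares of cells in both genotypes, the log2 ratio over all luminal cells was 0.82 for Igsf5, 0.82 for Pcp4, 0.85 for Foxq1 and 1.45 for Cdk5rap1, in place of 0.97, 0.96, 0.97 and 1.53. The ML folds given above are of pooled cells, without such weighting. For Igsf5 (2.01) and Pcp4 (2.0) they lay above the fold of every ML cluster except cluster 4 (2.38 and 2.33).

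Igsf5 and Pcp4 were held by few cells, and their UMIs came in a nearly constant proportion. After each cell was thinned to 1000 UMIs (45 WT and 252 mutant cells were shallower and left out), 12.7% of WT and 20.4% of mutant luminal cells had an Igsf5 UMI, and 14.1% and 23.3% had a Pcp4 UMI. Without thinning the shares were 21.1% and 32.0% for Igsf5 and 25.1% and 39.1% for Pcp4, at median depths of 3410 and 3896 UMIs for the thinned cells. The variance of Igsf5 UMIs per thinned ML cell was 9.17 times the mean in WT and 9.87 times in mutant, and for Pcp4 10.7 and 12 times, where evenly spread counts would give 1. Cells with 3 or more UMIs were 912 of 14176 WT and 1274 of 9538 mutant ML cells for Igsf5, and held 82.2% and 87.9% of its UMIs. Pcp4 gave 1.24 UMIs per Igsf5 UMI in WT and 1.23 in mutant luminal cells, and over the 11 clusters between 1.17 and 1.37 in WT and between 1.20 and 1.43 in mutant. In thinned ML cells, 77.1% of WT and 83.4% of mutant cells with Igsf5 also had Pcp4.

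The sum of both genes therefore served to mark cells, as a range and not as a cell type. Cells with 4 or more Igsf5 plus Pcp4 UMIs of 1000, called high cells here, were 673 of 9542 (7.05%) in WT A, 590 of 8925 (6.61%) in WT B, 855 of 6627 (12.9%) in mutant A and 867 of 6812 (12.7%) in mutant B. The limit of 4 was set after the distribution was seen, and 257 WT and 267 mutant cells lay at 3 UMIs against 155 and 201 at 4 UMIs. High cells held 85.5% of the UMIs of both genes in WT and 89.7% in mutant. Their share was 1.87 times larger in mutant, their mean sum 1.10 times larger (13.5 and 14.9 UMIs), and the mean of the other cells 1.5 times larger (0.168 and 0.251 UMIs). These ratios describe the same UMIs on which the genes were selected: the larger share follows from that selection, and the mean of the high cells is conditioned on the limit.

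**Figure D3:**
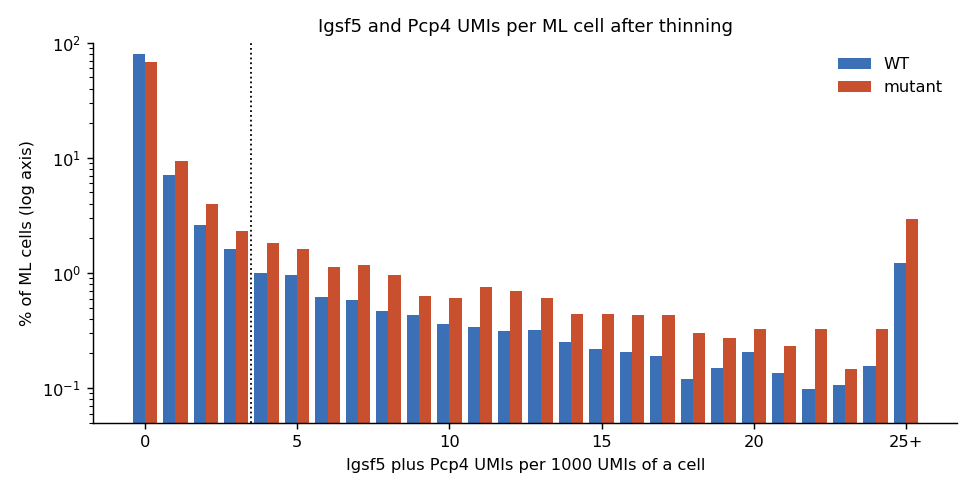
Share of WT (blue, 14176 cells) and mutant (red, 9538 cells) ML cells by the number of Igsf5 plus Pcp4 UMIs after thinning to 1000 UMIs, on a log axis; the last bars hold cells with 25 or more, and the dotted line marks the limit of 4. The mutant share is the larger in every bar above 0.

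High cells lay mostly in ML and LI. They made up 8.42% of WT and 16.6% of mutant ML cells, 5.17% and 12.8% of LI cells, and 0.349% and 0.508% of LP cells. The mutant over WT ratio of shares was 1.97 for pooled ML cells, and from 1.43 (cluster 7) to 2.12 (cluster 4) by ML cluster. Only cluster 4 lay above the pooled ML ratio. The pooled shares, also those over all luminal cells, were not weighted for cluster make-up. Within ML high cells ranged in WT from 0.559% of cluster 11 to 19.5% of cluster 7, and in mutant from 0.897% to 27.9% of the same clusters. The 2 mutant libraries exceeded both WT libraries in clusters 2 to 10, with 21% and 18.0% in WT and 27.6% and 28.1% in mutant libraries for cluster 7. In cluster 2 this rests on 3 WT and 5 mutant high cells. Nothing is read from this order, since the genes were selected on these UMIs. In clusters 2, 5, 6 and 9 the intervals of some libraries overlapped between genotypes. The few high LP cells were deep, with medians of 7351 UMIs in WT and 5906 in mutant against 2028 and 2142 in other LP cells. High LI cells were also deeper, with medians of 7777 against 5591 UMIs in WT and 7548 against 6751 in mutant. High ML cells were about as deep as the others, with medians of 3691 against 3489 UMIs in WT and 4222 against 4058 in mutant. Without the 5% of cells with most UMIs the share ratio was also 1.87, which, with high ML cells of like depth, says nothing on doublets. Doublets were not removed, and their part in the shares was not tested.

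**Figure D4:**
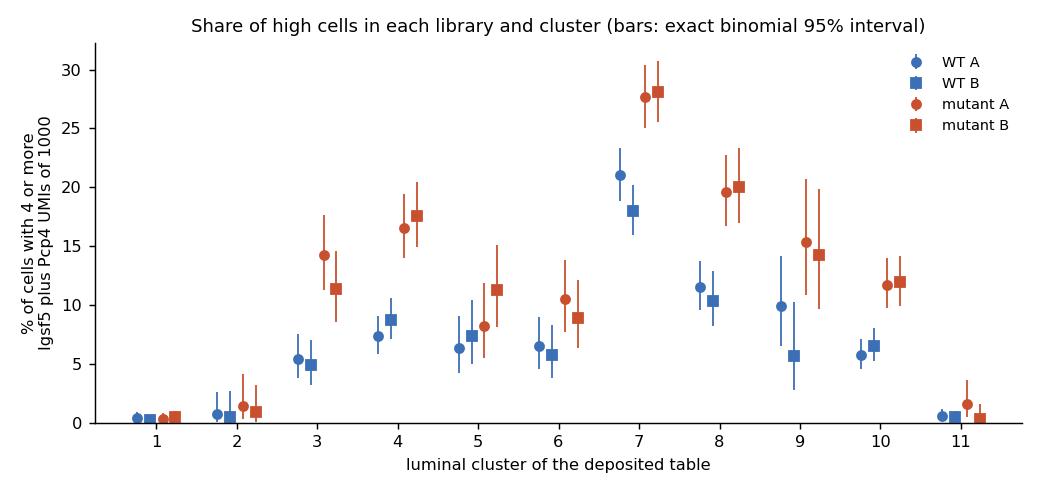
Share of high cells (4 or more Igsf5 plus Pcp4 UMIs of 1000) in clusters 1 to 11 for each library, with exact binomial 95% intervals. Shares peak in cluster 7, at 18.0% and 21% in WT (blue) and 27.6% and 28.1% in mutant (red), and reach at most 1.56% in clusters 1, 2 and 11.

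Where few cells hold a gene, free RNA in droplets can give single UMIs to others. Clusters 12 and 13, outside the luminal classes, served as a measure of this background, although cluster 13 held a few cells with many UMIs of both genes. In cluster 13, an Igsf5 UMI was present after thinning in 2.41% of the 83 WT cells, with an interval from 0.293% to 8.43%, and in 6.49% of the 77 mutant cells, from 2.14% to 14.5%, at median depths of 1899 and 1820 UMIs. In cluster 12 it was 0 of 43 WT and 1 of 33 mutant cells. The LP shares, 3.52% of 3149 WT and 4.68% of 2950 mutant cells at medians of 2032 and 2151 UMIs, lie within those intervals, and so do the Pcp4 shares of LP cells (4.45% and 7.69% against 3.61% and 10.4% in cluster 13). Without the high cells of cluster 13, a setting added after seeing the data, its Igsf5 shares were 1.22% (0.0309% to 6.61%) in WT and 2.70% (0.329% to 9.42%) in mutant and its Pcp4 shares 2.44% (0.297% to 8.53%) and 6.76% (2.23% to 15.1%), and the LP shares still lay within these intervals. On thinned cells the log2 ratio in LP was 0.91 for Pcp4, above a fold of 1.5, where that of Igsf5 was below it. By their shares of cells alone, Igsf5 and Pcp4 in LP are not told apart from background within a genotype. The cluster 13 intervals are wide, since they rest on only 83 WT and 77 mutant cells. In thinned LP cells, Igsf5 and Pcp4 met in 49 WT cells (4.93 under independence) and 71 mutant cells (10.6). Whether background alone could give this joint presence was not tested. The LI and ML shares of 12.9% to 28.1% lie above the cluster 13 interval of the same gene and genotype. The ML share is pooled over clusters. ML cluster 11, at 62.9 CPM Igsf5 and 86.3 CPM Pcp4 in WT against 64.7 and 84.2 CPM in LP, was not set against background alone. For Foxq1 and Cdk5rap1, clusters 12 and 13 had no UMI after thinning in any of their 43 and 83 WT or 33 and 77 mutant cells, which with 83 cells allows a share of up to 4.35%. Without thinning, cluster 13 held Cdk5rap1 in 5 of 83 WT cells (5 UMIs, 18.7 CPM) and 1 of 81 mutant cells (4.25 CPM), and Foxq1 in 1 and 2 cells. The cluster 13 value of Cdk5rap1 was above the 6.84 CPM of luminal cells in WT and below their 19.8 CPM in mutant. The thinned luminal shares of both genes lie under 4.35%, so these clusters hold too few cells to measure a background for Foxq1 and Cdk5rap1.

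Foxq1 and Cdk5rap1 were spread thinly. After thinning 1.11% of WT and 2.28% of mutant luminal cells had a Foxq1 UMI, and 0.677% and 2.0% had a Cdk5rap1 UMI (4.31%, 8.50%, 2.61% and 8.21% unthinned). The variance of their UMIs per cell was 1.14 and 1.17 times the mean for Foxq1 and 1.02 times for Cdk5rap1 in both genotypes. Of the 205 WT cells with Foxq1, 192 had a single UMI, as did 283 of the 307 mutant cells. Among thinned ML cells, 24 WT cells had both Foxq1 and Igsf5 where independence would give 25.2, and 67 mutant cells where it would give 62.8. Cdk5rap1 and Igsf5 met in 13 WT cells (13.1 under independence) and 56 mutant cells (44.3). In the high ML cells the level of Foxq1 was 0.82 times that of the other cells of the same clusters in WT and 0.81 times in mutant, and that of Cdk5rap1 0.86 and 1.03 times.

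The high ML cells carried other genes at higher levels. Observed UMIs in high cells were set against those expected from the other ML cells of the same cluster and library. Of 8720 genes considered, 43 besides Igsf5 and Pcp4 were over 1.5-fold higher in the high cells of both WT libraries and 17 were over 1.5-fold lower. These lists were made after the values were seen, from WT libraries alone. In the mutant libraries, which had no part in the choice, 41 of the 43 were above 1 in both and 25 above 1.5 in both, and 15 of the 17 were below 1 in both. Over the 8718 genes considered other than Igsf5 and Pcp4, 20.8% were above 1 in both mutant libraries, 0.379% above 1.5 in both and 42.7% below 1 in both. The median ratio of the 43 was 1.93 in WT, where they were chosen for high ratios, and 1.61 in mutant, and the choice alone can make the WT value the larger.

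The highest ratio of the list belonged to Ivl. This gene of involucrin, a precursor of the protein shell of stratified epithelia called the cornified envelope, had 448 UMIs in WT high cells where 82.1 were expected (5.46-fold) and 882 against 174 in mutant (5.07-fold). Sprr1a, a small proline-rich envelope protein, was 4.06-fold higher in WT and 2.75-fold in mutant, its relative Sprr2a3 3.92-fold and 1.57-fold, and Lce6a, a late cornified envelope gene, 3.72-fold and 2.71-fold. Other genes of cornification, looked up after these values were seen, were mixed. Sbsn was at 1.5-fold in WT and 1.58-fold in mutant, Evpl at 0.81-fold and 0.83-fold, Ppl at 0.98-fold and 0.77-fold, and the crosslinking enzyme gene Tgm1 at 0.95-fold and 1.05-fold. Lor, Flg, Sprr1b, Tgm3 and Cnfn had at most 5 UMIs in the high cells of a genotype. Next after Lce6a in the WT order came Dmkn (3.40-fold in WT, 2.36-fold in mutant), Greb1 (3.33-fold and 2.12-fold), Aqp8 (3.07-fold and 1.38-fold) and Wisp2 (2.93-fold and 2.60-fold). The extracellular matrix protein gene Thbs1 was 2.66-fold and 1.97-fold higher, the chemokine gene Cxcl12 2.38-fold and 2.0-fold, and the lysosomal cystine transporter gene Ctns 2.39-fold and 1.95-fold. Tph1, the tryptophan hydroxylase of serotonin synthesis, was 1.89-fold higher in WT and 0.90-fold in mutant, and with Mum1l1 (1.03-fold in mutant) it was not above 1 in both mutant libraries. The lower list held the ETS factor gene Etv4 (0.53-fold in WT, 0.54-fold in mutant) and the mature luminal marker Cited1 (0.64-fold and 0.60-fold), with Arhgap18 and Vwf as the genes not below 1 in both mutant libraries. Of the keratins looked up, Krt8 and Krt18 had ratios of 1.01 to 1.05, as near to 1 as Erbb3 itself (0.97 and 1.04). Krt4 was at 1.31-fold in WT and 1.2-fold in mutant and above 1 in all 4 libraries, Krt10 at 1.24-fold and 0.85-fold, Krt13 at 0.91-fold and 1.2-fold, and Krt1 at 1.02-fold and 1.17-fold. Marker lists were averaged over all ML cells of a genotype, not matched by cluster or library, so cluster make-up enters them. For the proliferating list the mean sums in high and other cells were 108 and 145 CPM in WT and 113 and 175 CPM in mutant. Matched by cluster and library, its member Mki67 was at 0.79-fold in WT and 1.04-fold in mutant. For the basal list the means were 15.4 and 22.8 CPM in WT and 16.2 and 19.6 CPM in mutant. For the luminal progenitor list they were 105 and 102 CPM in WT and 124 and 107 CPM in mutant. The mature luminal list, with Cited1 in it, was at 8495 and 8503 CPM in WT and 9286 and 9004 CPM in mutant. Its unmatched sum in high cells was thus nearly equal in WT and higher in mutant, while the matched ratio of Cited1 was below 1 in both. The dissociation stress list was at 18400 and 19817 CPM in WT and 16174 and 16010 CPM in mutant, the immune, endothelial, fibroblast and adipocyte lists at 15.5 CPM or less, and their part in the results was not tested.

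**Figure D5:**
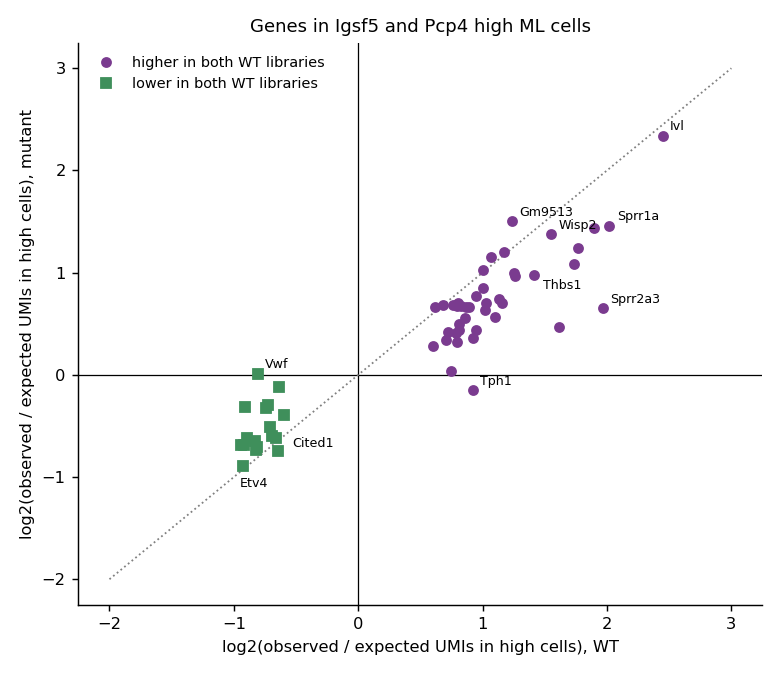
Log2 of observed over expected UMIs in high ML cells, WT (x axis) against mutant (y axis), for the 43 genes higher (circles) and 17 genes lower (squares) in the high cells of both WT libraries; the dotted line marks equal values. Most points share the sign of WT in mutant, with Tph1 and Vwf as exceptions, and the choice of genes on WT values alone can place points nearer 0 in mutant.

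Levels across the WT clusters set the members apart from each other. Over 22 profiles (11 clusters in 2 WT libraries, log2 of CPM plus 1), Igsf5 and Pcp4 had a Pearson correlation of 0.998, Igsf5 and Foxq1 of 0.66, and Igsf5 and Cdk5rap1 of -0.11. The profiles share libraries and cluster definitions, so these values are a description. Among 9825 genes with at least 500 UMIs, those most like Igsf5 after Pcp4 were the chemokine gene Cxcl12 (0.96) and Vstm2b (0.94), and the same 2 genes followed for Pcp4 (0.96 and 0.95). The keratins Krt4, Krt79 and Krt6a and Gsta4, all raised in the 3 classes, were also among the 10 genes most like Igsf5, which was noticed after their values were seen. Most like Foxq1 were the TWEAK receptor gene Tnfrsf12a (0.85), the magnesium transporter gene Nipal1 (0.84) and the membrane linker gene Ezr (0.82). Cdk5rap1, with 497 WT UMIs, was nearest to Rnpc3 (0.90), Gm14056 (0.90) and Gm10020 (0.89). It had 0 UMIs in cluster 9 of WT B, and that single profile can weigh heavily on its correlations. Cxcl12 is also 1 of the 20 genes raised in all 3 classes, with 35.3 CPM in WT and 57.6 CPM in mutant ML cells, and the only 1 of them among the 43 genes of the high cells.

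The counts of called genes around the members are small and stand beside 3.26% raised and 1.19% lowered over all genes, so nothing is read from them. Apart from Igsf5 and Pcp4 themselves, which are each other's nearest neighbour, the 10 genes with enough UMIs on either side of Igsf5 numbered 19, of which 1 was raised and 1 lowered over all luminal cells, with a median log2 ratio of 0.07. Dscam, the adhesion gene next to Pcp4, was lowered from 3.52 to 2.11 CPM (log2 -0.74), and Sh3bgr, on the other side of Igsf5, was at 1.94 and 2.53 CPM (log2 0.38). The raised gene was the long noncoding RNA 2810404F17Rik, from 0.743 to 1.72 CPM, 553351 bases from Igsf5. Around Foxq1, 2 of 20 were raised, the pseudogene Gm11367 (0.798 to 1.26 CPM) and the interferon regulatory factor gene Irf4 (1.03 to 1.84 CPM), while the forkhead gene Foxc1 on its other side was at 4.80 and 5.89 CPM (log2 0.30). Around Cdk5rap1, 1 of 20 was raised, the pseudogene Gm14494 (3.26 to 4.96 CPM). The medians were 0.10 around Foxq1 and 0.03 around Cdk5rap1.

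Genes related to the members by family or role were listed, in lists too short to differ visibly from the 3.26% of all genes raised and 1.19% lowered over all luminal cells. Of 15 junctional adhesion molecules and their scaffolds, listed for Igsf5, 11 had enough UMIs over all luminal cells, and none was raised or lowered there or in any class. The lowest log2 ratio was -0.15 (Lnx1) over all luminal cells and -0.32 (Magi3 in LI) by class. The junctional adhesion molecule F11r, the most abundant of them, was at 156 CPM in WT and 159 CPM in mutant. Of 22 genes of calmodulin and its regulators and effectors, listed for Pcp4, 15 had enough UMIs and ran over all luminal cells from a log2 ratio of -0.16 (Camk2b) to 0.17 (Camk2d), with the calmodulin gene Calm2 at 663 and 702 CPM. Of 32 other forkhead genes, paralogues of Foxq1, 16 had enough UMIs and none was raised. Foxj1, a forkhead factor of ciliated cells, was lowered in ML cells, from 1.11 to 0.504 CPM, and over all luminal cells (log2 -0.67). Of 23 genes of mitochondrial transfer RNA modification and CDK5 partners, listed for Cdk5rap1, 21 had enough UMIs, none was raised or lowered, and over all luminal cells they ran from -0.21 (Qtrt2) to 0.07 (Trmt61b). The medians of the lists over all luminal cells were -0.04, -0.01, 0.12 and -0.03, against 0.02 over all genes.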

How the data were processed

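Luminal cells of pooled mammary glands (3 mice per genotype) were profiled in 4 libraries with a 10x Genomics droplet kit. The deposited table holds a normalized signal per gene and cell. Per the labels, bcl2fastq 2.20, CASAVA 1.8 and GSNAP were used by the authors with the build GRCm38, and the study's methods name Partek Flow with a Seurat setting of 0.6 for clustering. The annotation and the counting of strand are not given in the sources used here. In each cell every value was a whole multiple of the smallest value within 0.02 (100% of 60853305 nonzero values), so UMIs were recovered by division, and cells summed to between 3516 and 3726 on the deposited scale. Clusters, classes and genotypes are rows of the table and 0 columns were left unused, but library numbers of the labels are not rows, so libraries were called A and B.

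UMIs were summed per library and class or cluster and divided by the total (CPM). Levels carry exact Poisson intervals, shares exact Clopper-Pearson intervals, and ratios the conditional binomial interval. No p-value is given, because each genotype is 1 pool. The members and all gene lists were chosen with earlier results of these data known. Genes named in the text are the 4 members, the 3 genes of most similar WT cluster profile to each, the 10 genes highest in their smallest class ratio among those raised in all classes, the neighbours that were called or nearest, called genes of the role lists, and Erbb3. Genes named in high cells, and the most abundant and extreme genes of the role lists, were chosen after their values were seen. Some genes that these rules name are not reported here. Positions come from GENCODE M21, which held 52403 of the 52636 genes, and promoters from RefSeq. The calling rule and the intervals were tried only on simulated Poisson counts. Those lack the excess spread of Igsf5 and Pcp4 over cells, so the trial does not cover these genes. Over all luminal cells the Igsf5 intervals of WT A (539 to 554 CPM) and WT B (476 to 490 CPM), from the same pool, did not meet. Doublets were not removed. Alternatives left out libraries, clusters or cells, or changed the scaling, the fold, the minimum of UMIs or the thinning. Python 3.11.15, numpy 2.4.6, pandas 2.3.3, scipy 1.17.1 and matplotlib 3.10.9 were used.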

Additional observations from a re-analysis of the deposited data

Results flagged for a closer look

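Cluster 13, a cluster of rare cells that enters no class comparison, held Igsf5 and Pcp4 in mutant above the WT level. Igsf5 was at 573 CPM in mutant and 44.8 CPM in WT cells of the cluster, and Pcp4 at 722 and 67.2 CPM. Of 81 mutant cells, the 2 with most Igsf5 held 58 and 50 of its 135 UMIs, and the 2 with most Pcp4 held 74 and 60 of its 170 UMIs. Without the 2 highest cells of each gene, a setting chosen after seeing the data, the levels of Igsf5 and Pcp4 were 125 and 167 CPM in mutant and 12.1 and 20.1 CPM in WT, where 3 and 5 UMIs were left. After thinning, the 3 mutant cells of the cluster with 4 or more UMIs of Igsf5 plus Pcp4 had a median depth of 7637 UMIs, against 1750.5 in its other cells. Whether depth or doublets have a part in these values was not tested.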

How the results depend on the processing

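All 200 alternative log2 ratios of the members stayed above 0. The members were chosen as higher in mutant in these same libraries, and every alternative reuses their UMIs. Such signs were thus largely set by the choice, and the counts of alternatives describe processing only. Of the 168 log2 ratios on the ratio scale, 165 stayed at or above a fold of 1.5, the exceptions being Igsf5 in LP on thinned cells (0.50) and Foxq1 in LP without WT A (0.41) or mutant B (0.51). With single libraries left out, the log2 ratio over all luminal cells ran from 0.88 to 1.05 for Igsf5, 0.87 to 1.04 for Pcp4, 0.91 to 1.04 for Foxq1 and 1.5 to 1.56 for Cdk5rap1. In the order Igsf5, Pcp4, Foxq1 and Cdk5rap1 it was 0.84, 0.83, 0.87 and 1.60 without cluster 11, and 0.82, 0.82, 0.85 and 1.45 with cluster levels weighted by the WT shares of cells. It was 1.07 for Foxq1 and 1.57 for Cdk5rap1 on thinned cells, and 1.49 for Cdk5rap1 with cells weighted equally. Differences of cell means of log2(deposited value + 0.1), another scale, were 0.64, 0.77, 0.13 and 0.17 in that order, and with 0.01 added 1.22 for Pcp4, 0.26 for Foxq1 and 0.34 for Cdk5rap1.

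Counts over all genes moved with the rule. Genes raised in all 3 classes numbered 39 with at least 20 UMIs, 11 with at least 100, 84 with no minimum, 255 at a lower fold limit (0.32 on the log2 scale) and 3 at a fold of 2, where Cdk5rap1 was the 1 member kept. In LP, raised and lowered genes numbered 627 and 218 with at least 20 UMIs, 107 and 21 with 100, 2084 and 1322 with no minimum, 958 and 402 at the lower fold limit, and 22 and 6 at 2-fold. In LI they numbered 638 and 327, 139 and 48, 1752 and 1749, 1041 and 608, and 38 and 14 under the same settings. In ML they numbered 812 and 486, 250 and 134, 2461 and 1585, 1724 and 832, and 57 and 56, with 154 lowered without cluster 11. With single libraries left out, 12 (without mutant A) to 46 (without mutant B) genes were raised in all classes, 151 to 449 were raised and 49 to 178 lowered in LP, 161 to 479 and 105 to 271 in LI, and 321 to 703 and 153 to 372 in ML.

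The share of cells with a UMI, WT then mutant, was 21.1% and 32.0% for Igsf5, 25.1% and 39.1% for Pcp4, 4.31% and 8.50% for Foxq1 and 2.61% and 8.21% for Cdk5rap1 without thinning. At 2000 UMIs it was 17.5% and 27.6%, 20.3% and 32.3%, 2.43% and 4.50%, and 1.53% and 3.97%. With 5 genes on either side, 0 neighbours of Igsf5, 0 of Pcp4 and 1 of Foxq1 were raised, and with 20 genes 2 around Igsf5 and 2 around Pcp4 were lowered.

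No paired analysis was possible because the table carries no replicate numbers and no test was made. Depth limits Foxq1 and Cdk5rap1 most, at 21 to 109 UMIs per library in LP cells.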
